A study of Mus musculus with 8 samples.

Results

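The guanylate-binding proteins (GBPs) and immunity-related GTPases (IRGs) were described here by 10 genes, Gbp2, Gbp3, Gbp4, Gbp6, Gbp7, Gbp8, Gbp9, Irgm1, Irgm2 and Igtp. They were taken by symbol from the 55359 genes listed in each of 8 mouse samples, and each of the 10 matched 1 listed gene. The samples were RNA of thymocytes from mice of 5 weeks, sorted as CD4 CD8 double positive (DP) cells with TCR beta absent or at low to intermediate level. The mice of both groups carried LSL-Sting1-N153S, a knock-in in which a loxP-flanked stop cassette holds back an allele of the adaptor STING with the N153S change, which makes the protein overactive. Samples labelled LSL-Sting1-N153S/+ had no Cre and are called control. Those labelled LSL-Sting1-N153S;Lck-cre, called Lck-cre, also carried Cre driven by the Lck promoter, a promoter used in T-lineage cells from early thymic stages on. Each group held 4 samples, 1 female (control replicate 1, Lck-cre replicate 5) and 3 males (control replicates 2 to 4, Lck-cre replicates 6 to 8). The labels do not say whether each sample came from its own animal, and p-values reflect only how much these samples vary.

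GBPs are large GTPases of the dynamin superfamily that assemble on the membranes of pathogen-containing vacuoles and on bacteria in the cytosol, where they help to break open the vacuole and to alert inflammasomes. IRGs are smaller GTPases with the same targets, and they divide into effectors and the 3 regulatory IRGM proteins (Irgm1, Irgm2 and Igtp, also called Irgm3), which sit on the cell's own membranes and hold the effectors in the inactive state. Both families are induced by interferon gamma, in part through IRF1, and by type I interferon, through a complex that holds STAT2 and IRF9. The binding sites of these factors are the interferon-stimulated response element (ISRE) and the gamma-activated sequence (GAS).

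The regions upstream of the genes are shown because the interferon elements in them are shared by genes that passed the test of genotype and by genes that did not. RefSeq promoters were in the table used here for 6 of the 10 genes (Gbp2, Gbp3, Gbp7, Irgm1, Irgm2 and Igtp), and Gbp4, Gbp6, Gbp8 and Gbp9 were not matched. Each sequence is the 250 bases before the gene start in RefSeq, build GRCm38.p6, written 5′ to 3′ on the strand of the gene, with every ISRE match (GAAA, any 2 bases, then GAAA, on either strand) in capitals. The positions are chr3:142620413-142620662 for Gbp2, chr3:142559794-142560043 for the first start of Gbp3 and chr3:142530086-142530335 for Gbp7, on the plus strand. Irgm1 is at chr11:48871421-48871670 on the minus strand, and Igtp at chr11:58199306-58199555 and Irgm2 at chr11:58214727-58214976 lie on the plus strand.
Gbp2: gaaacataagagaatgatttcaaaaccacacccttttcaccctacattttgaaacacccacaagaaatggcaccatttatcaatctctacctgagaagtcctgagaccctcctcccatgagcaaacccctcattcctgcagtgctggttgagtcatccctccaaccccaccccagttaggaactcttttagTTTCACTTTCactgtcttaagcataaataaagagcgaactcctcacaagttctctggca
Gbp3 start 1: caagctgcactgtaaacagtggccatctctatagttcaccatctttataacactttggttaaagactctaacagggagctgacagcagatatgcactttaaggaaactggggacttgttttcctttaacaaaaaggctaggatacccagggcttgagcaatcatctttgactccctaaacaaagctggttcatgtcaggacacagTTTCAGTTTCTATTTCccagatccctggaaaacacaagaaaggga
Gbp7: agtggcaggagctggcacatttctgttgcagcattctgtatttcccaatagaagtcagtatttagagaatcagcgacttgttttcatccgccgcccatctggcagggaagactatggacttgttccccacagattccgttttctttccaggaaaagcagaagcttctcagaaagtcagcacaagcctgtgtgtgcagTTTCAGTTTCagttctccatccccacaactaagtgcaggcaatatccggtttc
Irgm1: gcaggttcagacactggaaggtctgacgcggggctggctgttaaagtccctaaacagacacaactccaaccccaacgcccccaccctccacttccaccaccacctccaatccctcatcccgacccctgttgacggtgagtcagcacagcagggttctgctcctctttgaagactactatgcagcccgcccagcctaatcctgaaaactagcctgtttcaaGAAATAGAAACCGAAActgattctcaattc
Igtp: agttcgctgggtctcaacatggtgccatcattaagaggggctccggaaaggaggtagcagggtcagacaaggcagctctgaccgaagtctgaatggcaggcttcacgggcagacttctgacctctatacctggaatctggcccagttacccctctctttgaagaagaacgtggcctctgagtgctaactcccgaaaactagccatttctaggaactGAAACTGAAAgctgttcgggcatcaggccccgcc
Irgm2: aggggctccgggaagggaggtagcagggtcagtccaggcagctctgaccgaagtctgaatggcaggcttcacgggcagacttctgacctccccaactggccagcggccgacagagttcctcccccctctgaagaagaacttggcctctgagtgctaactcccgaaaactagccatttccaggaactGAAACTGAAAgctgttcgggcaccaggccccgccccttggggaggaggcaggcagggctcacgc

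An ISRE match lay within the last 64 bases before the start in each of these 6 sequences. It covered the bases from -59 to -50 in Gbp2, -53 to -44 in Gbp7, -34 to -25 in Igtp and -64 to -55 in Irgm2, counted from the gene start. In Gbp3 and in Irgm1 a pair of overlapping matches made 1 run of 16 bases, from -45 to -30 and from -30 to -15. The second start of Gbp3 (chr3:142560106-142560355) had no match in its window. Of 32851 promoter windows of 250 bases in the RefSeq table, 2.98% held an ISRE match on either strand. GAS matches (TTCNNNGAA, which reads the same on both strands) were found in Gbp7, Igtp and Irgm2 and in 7.02% of all windows. Igtp and Irgm2 shared a run of 55 identical bases, and 48.8% of the bases of the Irgm2 window lay in words of 20 bases that the Igtp window also held. These matches are descriptions of letters, and no binding was measured.

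**Figure D1:**
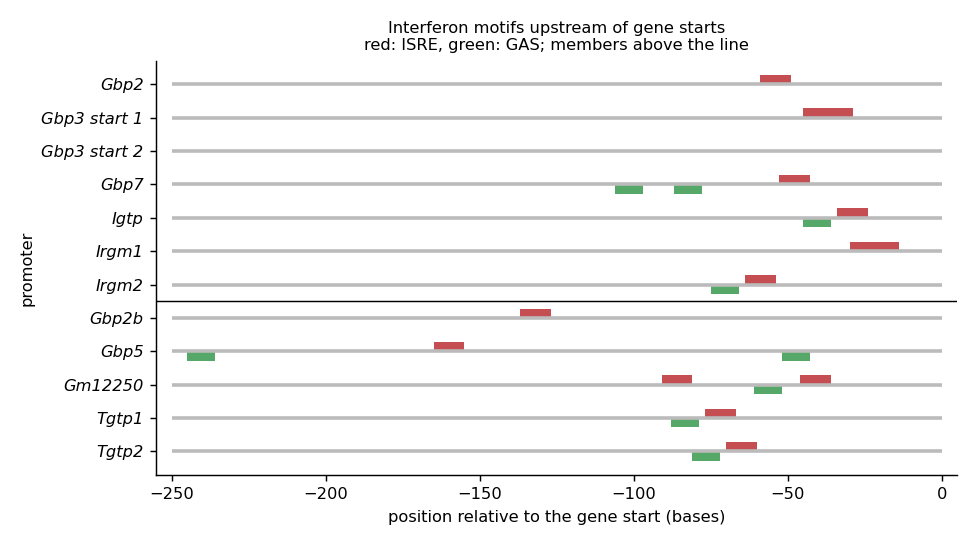
Positions of ISRE matches (red, above the line) and GAS matches (green, below it) in the 250 bases before each gene start, with the x axis in bases from the start. The genes described here are above the black rule and other GBP and IRG genes with a RefSeq promoter below it. Every promoter shown but the second start of Gbp3 holds an ISRE match, and 3 of the 6 genes described hold a GAS match.

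Across the series, 12337 genes had an FPKM (a level scaled to gene length and depth) of 1 or more in 4 or more samples and were tested. The fit was limma on log2(FPKM + 0.5) with a term for sex. A gene was called where its p, adjusted over all tested genes by the Benjamini-Hochberg method, was under 0.05. Folds below are ratios of mean FPKM, while log2 changes are on the log2(FPKM + 0.5) scale. Of all tested genes 25.8% were called, 1901 (15.4%) higher and 1279 (10.4%) lower in Lck-cre, while with TPM values (the same levels scaled to one total per sample) 27.3% were called, 1300 higher and 2067 lower. Sting1 itself, the check of the labels, lay at 11.6 to 15.3 FPKM in the controls and at 221, 85.4, 130 and 232 FPKM in Lck-cre replicates 5 to 8, lowest in replicate 6. Summed over all genes, FPKM came to 413835 to 437426 per control sample and 437778 to 457145 per Lck-cre sample, and read totals were not used here.

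All 10 GTPases were expressed in DP thymocytes of both groups, and each passed the filter in all 8 samples. By limma 3 of the 10 rose in Lck-cre (Gbp2, Gbp3 and Irgm1), 0 fell and 7 were not called, where 15.4% of all tested genes rose. At an unadjusted p under 0.05, 6 were higher and 1 was lower. The share of all genes at that looser threshold was not computed. It is at least the share called, 15.4% higher and 10.4% lower. The median log2 change of the 10 genes was 0.38, against 0.01 over all tested genes. Gbp3 was the 1 gene of the 10 whose groups did not overlap, while 29.4% of all tested genes had groups without overlap (17.1% higher and 12.3% lower in Lck-cre). With TPM values Gbp3 rose and Gbp8 fell, where 10.5% of all genes rose and 16.8% fell. With 10 genes, 3 calls are not read as a result that sets the family apart from other genes.

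**Figure D2:**
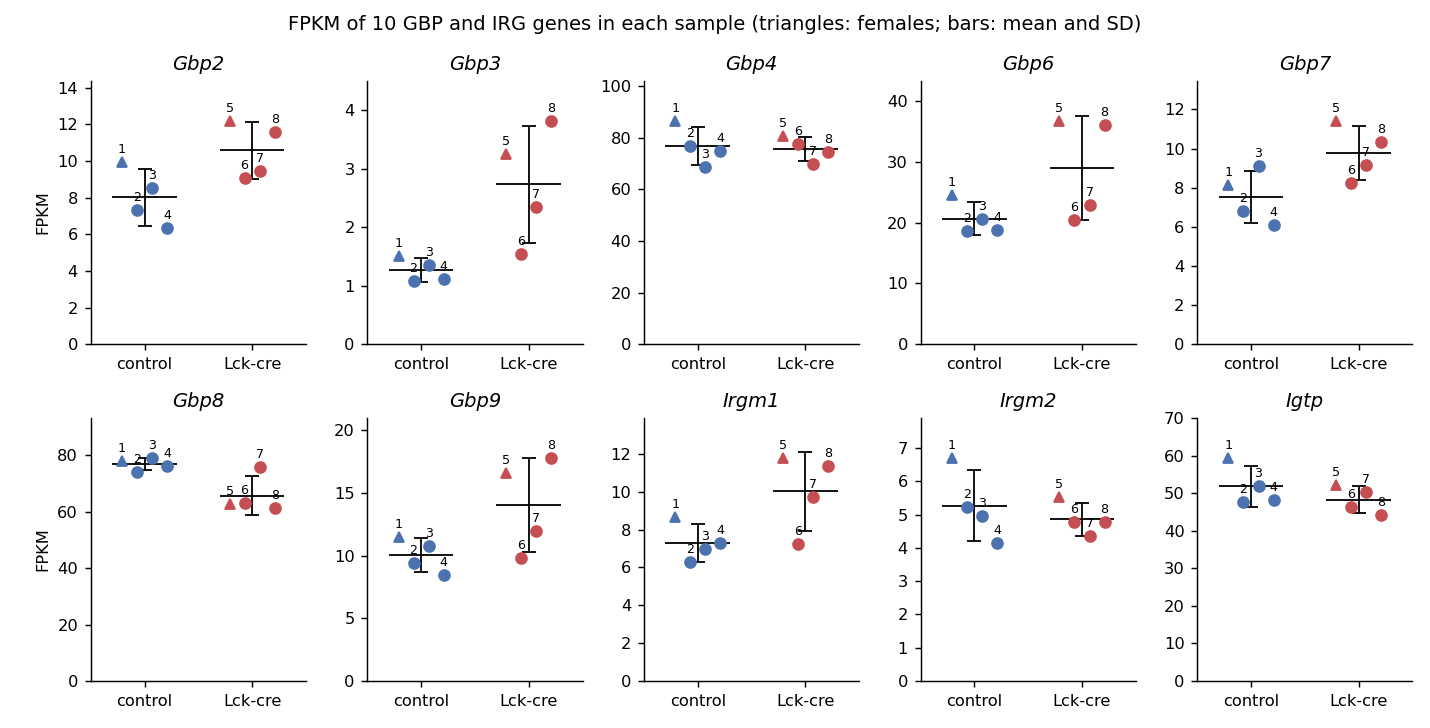
FPKM of the 10 genes in each sample, 1 panel a gene, with the y axis from 0. Triangles are females, circles are males, numbers are replicates, and the black lines give the mean and SD of the 4 samples of a group. Lck-cre replicates 5 and 8 lie above all controls in the same 6 genes, and all Lck-cre points of Gbp4 and Irgm2 lie within the control range.

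Gbp2, Gbp3 and Gbp7, the GBPs on the plus strand of chromosome 3 (listed from 142236103 to 142343769 in a build that the files do not name), were all higher in Lck-cre on average, and 2 of the 3 were called. Gbp2 (ENSMUSG00000028270.13), a prenylated GBP that is recruited to the vacuoles of Toxoplasma, lay at 9.91, 7.31, 8.50 and 6.32 FPKM in control replicates 1 to 4 and at 12.2, 9.09, 9.44 and 11.6 FPKM in Lck-cre replicates 5 to 8. The female control lay above Lck-cre replicates 6 and 7, so the groups overlapped. Means of 8.01 ± 1.55 and 10.6 ± 1.53 FPKM gave a 1.32-fold rise (SD, n = 4 each), with a log2 change of 0.39 (SE 0.11, adjusted p = 0.0326 by limma).

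Gbp3 (ENSMUSG00000028268.15), the least abundant of the 10, lay at 1.51, 1.08, 1.35 and 1.12 FPKM in the controls. In Lck-cre replicates 5 to 8 it lay at 3.24, 1.54, 2.34 and 3.81 FPKM. Every Lck-cre sample was above every control, though replicate 6 was above the highest control by little. The rise of Gbp3 was 2.16-fold, with means of 1.26 ± 0.203 FPKM (SD, n = 4) and 2.73 ± 0.998 FPKM (SD, n = 4), with a log2 change of 0.82 (SE 0.20, 95% interval 0.37 to 1.28, limma adjusted p = 0.0211). Mean read coverage per base of Gbp3 was 5.20 to 18.8, the lowest range among the chromosome 3 genes, so its values rest on the fewest reads of these. With TPM values its groups overlapped, and the call held.

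Gbp7 (ENSMUSG00000040253.16) lay at 8.13, 6.78, 9.09 and 6.09 FPKM in the controls and at 11.4, 8.23, 9.18 and 10.3 FPKM in Lck-cre. Lck-cre replicate 6 lay inside the control range, and the other 3 Lck-cre samples lay above it. The means were 7.52 ± 1.35 and 9.79 ± 1.38 FPKM (SD, n = 4 each), a log2 change of 0.36 (SE 0.12, adjusted p = 0.0583 by limma), which missed the threshold. Its upstream window holds the ISRE and GAS matches shown above, as do those of Igtp and Irgm2, which were not called either. The windows of the IRG genes Tgtp1 and Tgtp2, which were called higher, hold both matches too. Tgtp1 passed the filter mainly through the Lck-cre samples.

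The calls of Gbp2 and Gbp3 ended in several of the other settings. With males only, without control replicate 1 and without Lck-cre replicate 5, the estimate rests on the males alone. These settings are not separate checks, and in each the log2 change was 0.80 for Gbp3 and 0.42 for Gbp2. That of Gbp3 ended with no filter on low values (adjusted p = 0.0887 by limma) (3.66% of all genes were then called), with males only (0.0786) and on leaving out control replicate 1, control replicate 2 or Lck-cre replicate 5 (0.0635 to 0.0788). That of Gbp2 ended with TPM values (0.0519), with no filter (0.0980), with no sex term (0.0640), with males only (0.0816) and on leaving out any single sample but control replicate 3 or Lck-cre replicate 6 (0.0620 to 0.0855).

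Gbp4, Gbp6, Gbp8 and Gbp9, the GBPs on the minus strand of chromosome 5 (listed from 105162016 to 105441564), held both of the most abundant genes of the family, and none was called. Gbp4 (ENSMUSG00000079363.8) lay at 86.4, 76.9, 68.5 and 75.0 FPKM in the controls and at 80.8, 77.7, 69.98 and 74.5 FPKM in Lck-cre. The Lck-cre samples all lay within the control range. Gbp4 differed by -0.02 on the log2 scale (SE 0.06, 95% interval -0.16 to 0.13, limma adjusted p = 0.881), and its sign turned when single samples were left out.

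Gbp8 (ENSMUSG00000034438.17) was as abundant, at 77.9, 74.2, 79.1 and 76.3 FPKM in the controls, with the smallest relative spread of the 10 genes there. In Lck-cre replicates 5 to 8 it lay at 62.8, 63.0, 75.9 and 61.3 FPKM, so that 3 samples lay below all controls and replicate 7 lay among them. The means were 76.9 ± 2.11 and 65.8 ± 6.84 FPKM (SD, n = 4 each), with a log2 change of -0.23 (SE 0.08, adjusted p = 0.0562 by limma), just past the threshold. Gbp8 was called lower by limma with TPM values (adjusted p = 0.0180), quantile normalization (0.0203), median-of-ratios scaling (0.0349) and no sex term (0.0427). The same call was made without Lck-cre replicate 7 (0.0283), its highest Lck-cre sample, whose removal was bound to lower the estimate. With TPM values all 4 Lck-cre samples lay below the controls.

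Gbp6 (ENSMUSG00000104713.5) lay at 24.5, 18.6, 20.7 and 18.7 FPKM in the controls and at 36.7, 20.4, 22.8 and 36.1 FPKM in Lck-cre. Gbp9 (ENSMUSG00000029298.16) lay at 11.5, 9.40, 10.8 and 8.46 FPKM in the controls and at 16.6, 9.84, 11.9 and 17.8 FPKM in Lck-cre. In both genes replicates 5 and 8 stood apart from replicates 6 and 7, and replicate 6 lay inside the control range. The log2 change of Gbp6 was 0.44 (SE 0.16, adjusted p = 0.0630 by limma) and that of Gbp9 was 0.44 (SE 0.16, adjusted p = 0.0735), with SDs in Lck-cre of 8.60 and 3.78 FPKM against 2.74 and 1.36 FPKM in the controls.

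Some of these genes overlap in their listed spans or share sequence. The spans of Gbp4, Gbp8 and Gbp9 overlap on one strand, with 99.8% of that of Gbp4 and 100% of that of Gbp9 inside that of Gbp8. The split of reads among these genes may depend on how the authors assigned them, which is not known. Summed, the levels of Gbp4, Gbp8 and Gbp9 lay at 158 to 176 FPKM in controls and at 151 to 160 FPKM in Lck-cre samples. In GENCODE M21 transcripts (GRCm38), which may differ from the annotation used by the authors, 64.5% of the 100-base windows of Gbp6 also occurred in another gene. Gbp10 held 36.3% of them and Gm43302, an overlapping model, 59.0%. For the other 9 genes the share was 0 to 10.01%, and 0 in Gbp2 and Irgm1. It was 1.64% in Gbp4, 4.39% in Gbp8 and 1.65% in Gbp9, so in that annotation these transcripts are mostly distinct although their spans overlap.

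Of the 3 IRGM regulators on chromosome 11, Irgm1 rose and the neighbouring pair Irgm2 and Igtp were not called. Irgm1 (ENSMUSG00000046879.8, listed from 48752795 to 48762510 on the minus strand), which is known to act on lysosomes, mitochondria and autophagy, lay at 8.66, 6.29, 6.96 and 7.29 FPKM in the controls and at 11.8, 7.21, 9.72 and 11.4 FPKM in Lck-cre. Replicate 6 lay inside the control range and the other 3 Lck-cre samples above it. Means of 7.30 ± 0.999 and 10.02 ± 2.07 FPKM gave a 1.37-fold rise (SD, n = 4 each), with a log2 change of 0.42 (SE 0.13, adjusted p = 0.0397 by limma). That call ended with TPM values (0.0648), with no filter (0.120), with no sex term (0.0616), with males only and without any single sample other than Lck-cre replicate 6 (0.0630 to 0.116).

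Igtp (ENSMUSG00000078853.9, listed from 58090382 to 58098417 on the plus strand), which resides on the endoplasmic reticulum, was the third most abundant of the 10 genes. It lay at 59.4, 47.7, 52.0 and 48.2 FPKM in the controls and at 52.3, 46.3, 50.3 and 44.3 FPKM in Lck-cre. Its log2 change of -0.10 had a 95% interval of -0.24 to 0.05 (SE 0.06, limma adjusted p = 0.274), and the highest sample was the female control.

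Irgm2 (ENSMUSG00000069874.8, listed from 58090444 to 58113608 on the plus strand), a regulator found at the Golgi, lay at 6.70, 5.23, 4.96 and 4.15 FPKM in the controls and at 5.53, 4.77, 4.35 and 4.78 FPKM in Lck-cre. All Lck-cre samples lay within the control range. Its log2 change of -0.09 had a 95% interval of -0.31 to 0.13 (SE 0.10, limma adjusted p = 0.503). The listed span of Irgm2 holds 99.2% of that of Igtp, and 5.16% of the 100-base windows of Igtp also occurred in Irgm2 transcripts.

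The upper bounds of these intervals leave room for rises of Igtp and Irgm2 no larger than 0.05 and 0.13 (log2), below the estimate of 0.42 for Irgm1, although the difference between the genes was not tested. An ISRE match stands upstream of all 3 (the capitals in the sequences above).

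**Figure D3:**
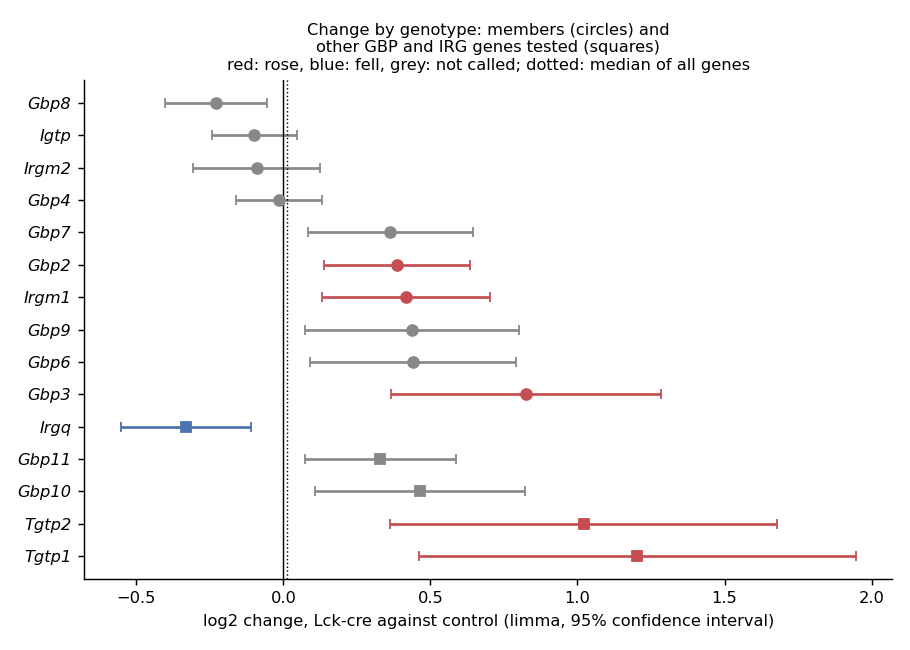
Log2 change of each gene in Lck-cre against control on the log2(FPKM + 0.5) scale, with the 95% confidence interval of limma. Circles are the 10 genes, squares are the 5 other GBP and IRG genes that were tested, and the dotted line is the median of all tested genes. Intervals of Gbp4, Irgm2 and Igtp include 0, and the largest estimates are those of Tgtp1 and Tgtp2. Tgtp1 passed the filter mainly through the Lck-cre samples.

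As sums of FPKM, the 10 genes together lay at 252 to 295 in the controls and at 248 to 293 in Lck-cre, so the total spanned nearly the same range in both groups. Gbp4, Gbp8 and Igtp, which were grouped after their values were seen, made up 75.9% to 79.3% of that sum in the controls and 65.3% to 75.4% in Lck-cre. Summed, the 3 genes lay at 199 to 224 FPKM in controls and at 180 to 196 FPKM in Lck-cre samples. The other 7 genes summed to 52.2 to 70.9 FPKM in the controls and to 97.4, 61.1, 69.8 and 95.8 FPKM in Lck-cre replicates 5 to 8. Of the 3 genes none was called, and of the other 7 the called ones were Gbp2, Gbp3 and Irgm1. No test was made of these sums.

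The 4 Lck-cre samples did not lie alike. Replicates 5 and 8 lay above all 4 controls in the same 6 genes (Gbp2, Gbp3, Gbp6, Gbp7, Gbp9 and Irgm1), replicate 7 in 4 of these (Gbp3, Gbp7, Gbp9 and Irgm1) and replicate 6 in Gbp3 alone. All 4 Lck-cre samples lay above all controls in 17.1% of all tested genes. The share for a single replicate is at least that and was not computed, so these counts are not read as particular to the family. Replicate 6 was the lowest Lck-cre sample in 6 of the 10 genes, against 29% of all tested genes. It was also the sample with the least Sting1 (85.4 FPKM). Replicates 5 and 8, with 221 and 232 FPKM of Sting1, held the first or second place in all of the 6 genes. With 4 samples no relation between Sting1 and these genes was tested.

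Without Lck-cre replicate 6, the same 6 genes rose by limma, with adjusted p of 0.0283 for Gbp2, 0.00367 for Gbp3, 0.0176 for Gbp6, 0.0394 for Gbp7, 0.0174 for Gbp9 and 0.00486 for Irgm1. Log2 changes were then 0.42 to 1.01 in these genes, and -0.21 to -0.04 in Gbp4, Gbp8, Irgm2 and Igtp, of which 0 were called by limma and 1 (Gbp8, lower) passed an unadjusted p under 0.05. In that setting 31.5% of all tested genes were called, 17.9% higher and 13.6% lower. Replicate 6 was the lowest Lck-cre sample in each of the 6 genes that rose. Leaving it out was bound to raise their estimates, so these calls are no separate support for a rise. Without control replicate 1 or Lck-cre replicate 5, the females, 0 of the 10 were called by limma, while 5.24% and 5.20% of all genes were called. In both settings 3 of the 10 passed an unadjusted p under 0.05. The share of all genes at that threshold was not computed, so this count is not read as a result about the family.

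**Figure D4:**
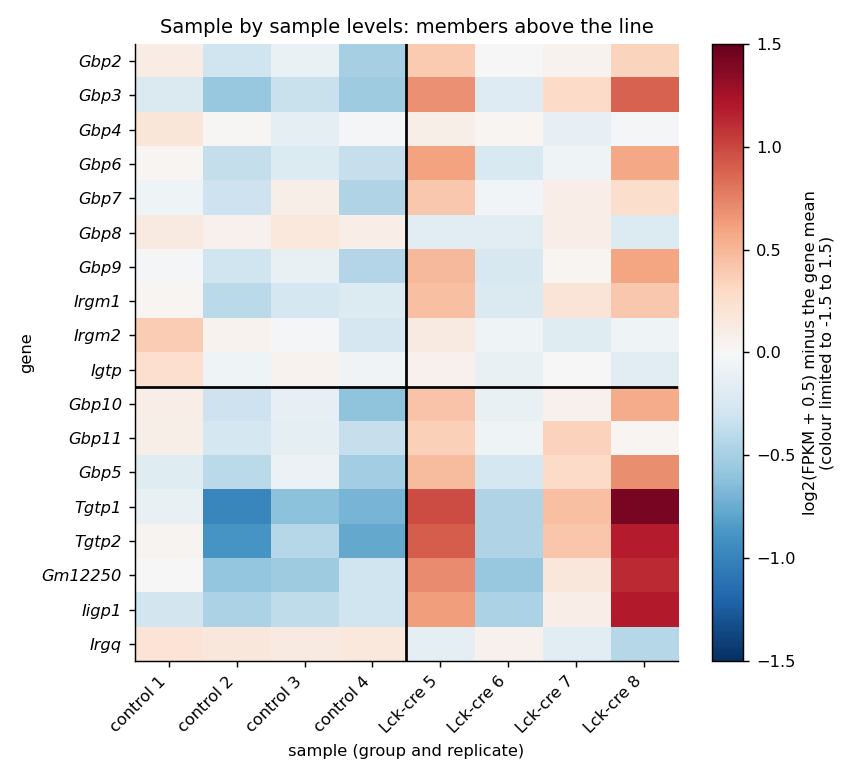
Log2(FPKM + 0.5) minus the mean of the gene over 8 samples, with samples as columns and genes as rows. The 10 genes are above the line and other GBP and IRG genes below it and the colour scale is capped. Lck-cre replicates 5 and 8 are red in most rows, replicate 6 is near the control colours in most rows, and Gbp4, Gbp8, Igtp and Irgm2 are pale or blue in Lck-cre.

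Other genes of the 2 families came from a list of 19 found symbols, of which 5 passed the filter. Of these, 2 rose (Tgtp1 and Tgtp2), 1 fell (Irgq) and 2 were not called (Gbp10 and Gbp11). Tgtp1 passed the filter through the 4 Lck-cre samples and 1 control. Tgtp1 and Tgtp2 encode the near-identical effector IRGs known as Irgb6, so their reads may be split between them. Tgtp1 lay at 1.59, 0.642, 0.970 and 0.896 FPKM in the controls and at 3.96, 1.15, 2.59 and 5.55 FPKM in Lck-cre, a log2 change of 1.20 (SE 0.33, adjusted p = 0.0288 by limma). Tgtp2 lay at 2.89, 1.28, 1.95 and 1.44 FPKM and at 5.66, 1.92, 3.88 and 6.93 FPKM, a log2 change of 1.02 (SE 0.29, adjusted p = 0.0333). In both, Lck-cre replicate 6 fell below the female control. Both calls ended with no filter and on leaving out in turn Lck-cre replicate 5, Lck-cre replicate 7 or control replicate 1, 2 or 4. With males only, 4 genes of this list were tested and 0 rose.

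Gbp10, next to Gbp6 on chromosome 5, lay at 6.98, 5.12, 5.91 and 4.08 FPKM in the controls and at 8.88, 5.92, 6.76 and 9.76 FPKM in Lck-cre (adjusted p = 0.0571 by limma). Gbp11 lay at 2.05 to 2.93 FPKM in the controls and 2.58 to 3.64 FPKM in Lck-cre (adjusted p = 0.0603). Irgq, an IRG-like protein not known as an interferon target, fell from 20.01 ± 0.472 to 15.9 ± 2.26 FPKM (SD, n = 4 each), with no overlap between groups (log2 change -0.33, adjusted p = 0.0367 by limma), a call kept without Lck-cre replicate 6 but lost when any other single sample was left out.

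Below the filter, Gbp5, a GBP that promotes inflammasome assembly, lay at 0.834, 0.644, 0.926 and 0.554 FPKM in the controls and at 1.60, 0.755, 1.34 and 1.96 FPKM in Lck-cre. Gm12250, the effector IRG Irgb10, lay at 0.266 to 0.638 FPKM and at 1.37, 0.276, 0.785 and 1.99 FPKM. Iigp1, the effector IRG Irga6, lay at 0.0322 to 0.109 FPKM and at 0.642, 0.0325, 0.290 and 1.19 FPKM. In all 3, replicates 8 and 5 were the highest samples and replicate 6 lay inside the control range, as in Gbp6 and Gbp9. The remaining 11 listed genes did not exceed 0.318 FPKM in any sample.

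Ligands of the pathway were not detected in these tables: Ifng and Ifnb1 were listed at 0 in all 8 samples. Of 12 tested genes of interferon gamma signalling, 3 rose (Irf1, Irf8 and Ptpn2) and 1 fell (Jak1), and on TPM values 4 fell and 1 rose. Irf1, the transcription factor that binds the ISRE of GBP genes, lay at 35.6, 25.5, 31.8 and 51.8 FPKM in the controls and at 72.8, 45.7, 47.2 and 71.6 FPKM in Lck-cre (log2 change 0.72, SE 0.22, adjusted p = 0.0415 by limma). Lck-cre replicates 5 and 8 were again the highest, and control replicate 4 lay above replicates 6 and 7. That call ended with TPM values, quantile normalization or no trend, with no filter, with males only, and on leaving out any single sample but control replicate 4 or Lck-cre replicate 6.

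Ifngr1, the ligand-binding receptor chain for interferon gamma, was abundant, at 214 ± 7.26 and 206 ± 9.04 FPKM (SD, n = 4 each, adjusted p = 0.513 by limma). Irf8, an IRF1 partner, rose from 1.90 ± 0.367 to 3.12 ± 0.492 FPKM (adjusted p = 0.0194) and Ptpn2, a phosphatase that inactivates JAK1, from 14.9 ± 0.125 to 18.1 ± 1.34 FPKM (adjusted p = 0.0247). Jak1, the kinase shared by both receptors, fell from 93.9 ± 5.32 to 77.7 ± 7.35 FPKM (adjusted p = 0.0326). Of 8 tested genes of type I interferon signalling, 1 rose (Ifnar2, a receptor chain) and 1 fell (Irf3), and by limma on TPM values 2 fell and 0 rose. The calls of Irf8, Ptpn2, Jak1, Ifnar2 and Irf3 all ended on leaving out control replicate 1, control replicate 2 or Lck-cre replicate 5. Control replicate 4 and Lck-cre replicate 8 each decided all but that of Irf8, Lck-cre replicate 7 those of Ptpn2, Ifnar2 and Irf3, and control replicate 3 that of Irf3.

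Other known targets of the same elements were read beside them. Of 13 tested interferon gamma targets 8 rose and 0 fell by limma, and with TPM values 6 rose. The count was 2 with males only and on leaving out either female (control replicate 1, Lck-cre replicate 5), 3 of 20 with no filter, 4 on leaving out control replicate 2 or control replicate 4, and 5 on leaving out Lck-cre replicate 7. Without Lck-cre replicate 6 it was 10. The smallest adjusted p were those of Psme2 (0.00750) and Psmb10 (0.00932), parts of the immunoproteasome system that trims peptides for MHC class I. Psme2 rose 1.49-fold and Psmb10 rose 1.43-fold, calls that held in all 18 other settings. Nlrc5, the transactivator of MHC class I genes, lay at 1.81, 1.03, 1.54 and 1.38 FPKM in the controls and at 4.14, 1.22, 2.49 and 4.78 FPKM in Lck-cre (adjusted p = 0.0696). Of 22 tested type I interferon targets 6 rose, with the smallest adjusted p in Epsti1 and Bst2, 0 fell by limma, and all 22 log2 changes were above 0, with a median of 0.40. Beside both lists, 15.4% of all 12337 tested genes rose, and 6421 had a log2 change above 0, with a median of 0.01. The count of type I interferon targets that rose depended on single samples. It was 19 of 22 without Lck-cre replicate 6, where 17.9% of all genes rose, 3 of 22 on leaving out control replicate 2 or control replicate 4, and 2 of 21 with males only and on leaving out either female. With no filter it was 2 of 32. These lists were chosen with earlier results of these data known, so they are no independent support for a direction.

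Genes that work with GBPs and IRGs were mostly not called. Of 14 autophagy genes, 0 rose and 1 fell by limma, and with TPM values 4 fell. The list holds genes of the ATG8 conjugation system, which places IRGs and GBPs on vacuoles, and other autophagy genes. The gene that fell, Ulk1 (from 46.1 ± 3.71 to 37.4 ± 2.64 FPKM), is a kinase that starts autophagy and lies outside that system. Of 4 tested inflammasome and cell death partners, Ripk3, a necroptosis kinase, rose from 24.9 ± 0.992 to 31.9 ± 2.77 FPKM (SD, n = 4 each). Casp1 and Casp4, the caspases downstream of GBPs, did not exceed 0.260 FPKM in any sample. Of 10 prenylation and ubiquitin partners 1 rose, Fntb, a farnesyltransferase subunit (14.1 ± 0.164 to 16.4 ± 0.619 FPKM), a call that ended with TPM values. Of 9 tested dynamin superfamily GTPases outside the interferon-induced families, Ehd4 (3.46 ± 0.342 to 5.58 ± 0.953 FPKM) and Ehd1 (9.22 ± 0.721 to 11.4 ± 0.390 FPKM) rose and Atl2 fell (98.1 ± 6.02 to 80.3 ± 7.38 FPKM). All 6 calls ended without control replicate 1 or Lck-cre replicate 5, and those of Ulk1, Fntb, Ehd1 and Atl2 also on leaving out Lck-cre replicate 7 or control replicate 2 or 4. Without Lck-cre replicate 8 those of Fntb, Ehd1 and Atl2 ended.

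Genes beside the clusters were read to see whether whole regions moved. Beside the chromosome 3 genes, Kyat3 rose from 1.14 ± 0.249 to 1.63 ± 0.139 FPKM (adjusted p = 0.0459 by limma), while Gtf2b, Pdlim5 and the distant Rap1gds1 were not called, and the call of Kyat3 ended on leaving out any single sample but control replicate 3. Beside the chromosome 5 genes, Abcg3, a transporter gene 31432 bases away, fell from 28.2 ± 0.651 to 23.4 ± 1.55 FPKM (adjusted p = 0.0217), as did a U6 small nuclear RNA gene (adjusted p = 0.0289), and Gbp11 and Lrrc8b were not called. The call of Abcg3 ended on leaving out Lck-cre replicate 5 or control replicate 1 or 2, and that of U6 on leaving out Lck-cre replicate 7 or 8 or control replicate 2, 3 or 4. Beside Irgm1, Psme2b, a copy of Psme2, rose from 11.1 ± 1.01 to 16.1 ± 2.22 FPKM (adjusted p = 0.00942), as did Tgtp1, and Trim41 and Rack1 were not called. Mrpl22, Gemin5, Zfp692 and Zfp672, beside Igtp and Irgm2, were not called.

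The genes nearest to the mean profile of the 10 GTPases were Cgrrf1, Gramd4, Tapbp, Tmem253 and Ifi35, with root mean square differences of 0.05 to 0.06 (log2) over the 8 samples. The 10 genes themselves lay at 0.10 (Gbp2) to 0.34 (Gbp3) from their own mean profile, with 0.30 for Gbp8.

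The labelled cell type was checked against its markers. Cd4, Cd8a, Cd8b1, Rag1, Rag2, Ptcra and Cd1d1 were all present, with a summed level of 3725 to 3986 FPKM in the controls and 2691 to 3644 FPKM in Lck-cre. By limma 4 of the 7 fell (Cd4, Rag1, Rag2 and Cd1d1) and Ptcra rose. All 5 of these calls ended with males only and on leaving out either female, and 2 of the 4 lower calls ended on leaving out any one of control replicates 2 to 4 or Lck-cre replicate 8. Markers of other cells that can express GBPs and IRGs did not all move alike. The dendritic, macrophage and NK sums were higher in every Lck-cre sample than in any control. Taken singly, 17.1% of all tested genes were higher in this way, so these sums are not read as a change in cell types. The B cell sums overlapped between the groups, as did those of thymic epithelium, endothelium and fibroblasts. For 7 dendritic cell genes the sum ran from 3.06 to 4.92 FPKM among controls and from 7.22 to 15.8 FPKM among Lck-cre samples, with H2-Ab1 and Cd74 called. Only 3 of the 7 passed the filter, and Itgax, Flt3, Xcr1 and Siglech did not. H2-Aa was called too, but it passed the filter only through the 4 Lck-cre samples, where it is high, so its call is no support. Cd74 passed through these 4 samples and 1 control, and the dendritic sum includes both genes. Without Lck-cre replicate 5, 1 of H2-Ab1 and Cd74 was called. For 8 macrophage genes the sum was 0.226 to 0.373 and 0.724 to 2.23 FPKM, with 0 of 8 passing the filter. Of NK cell genes Ncr1 was at 0 in all samples, while the 5 genes summed to 16.4 to 26.7 and 35.0 to 89.8 FPKM, nearly all of it Gzma. The 5 B cell genes summed to 12.3 to 16.9 and 7.85 to 15.5 FPKM, and the 8 genes of thymic epithelium, endothelium and fibroblasts (Pdgfra at 0) to 46.9 to 58.4 and 54.8 to 62.0 FPKM. The 6 mature thymocyte genes summed to 80.02 to 92.4 and 81.9 to 99.6 FPKM, and of 4 tested, Klf2 and Itgb7 rose, of which 1 call ended on leaving out any one of control replicates 1 to 3 or Lck-cre replicate 5 or 8. The part of these cells in the values of the GTPases was not tested, and in bulk RNA fewer cells of a type and less RNA per cell cannot be told apart.

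In the sex term of the same fit, 9 of the 10 GTPases were higher in the 2 females than in the 6 males, against 55.1% of all tested genes, and Gbp8 was lower. The log2 differences of female minus male were 0.18 to 0.42 in the 9 genes, with 0.34 in Irgm2 and 0.21 in Igtp, which did not pass the test of genotype. At an unadjusted p under 0.05, 5 were higher in females (Gbp2, Gbp4, Gbp6, Irgm2 and Igtp), where 2.5% of all genes were. None of the 10 was called (adjusted p = 0.999 by limma for each), and 0.0811% of all genes were. Each group held 1 female, so the term rests on 2 samples. Control replicate 1 was the highest control in 8 of the 10 genes and Lck-cre replicate 5 the highest Lck-cre sample in 7, against 31% and 21.1% of all tested genes.

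**Figure D5:**
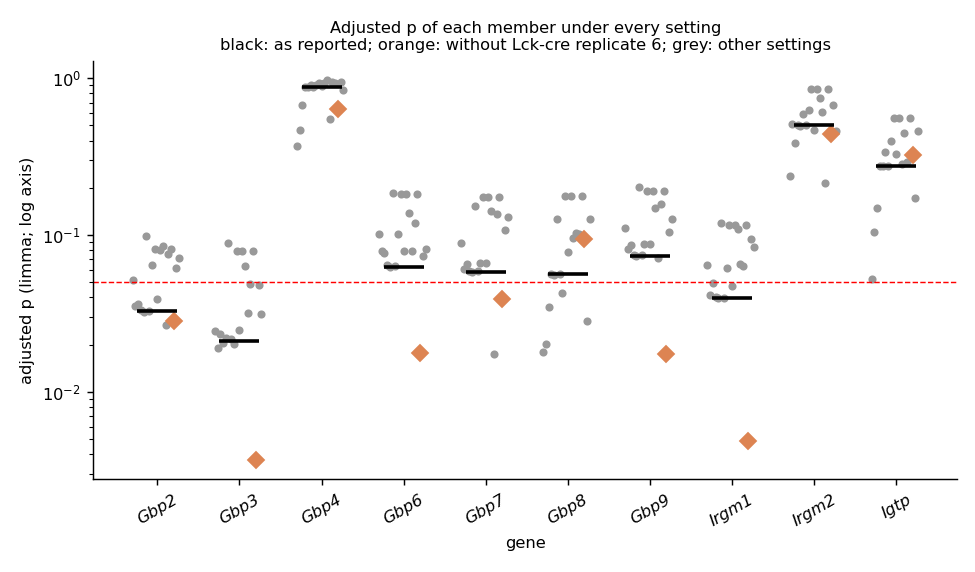
Adjusted p of limma for each of the 10 genes (log axis) as reported (black bar), without Lck-cre replicate 6 (orange diamond) and under the other settings (grey), with the threshold of 0.05 as a dashed line. Gbp4, Irgm2 and Igtp stay above the threshold throughout. Below it without Lck-cre replicate 6 are 6 genes, in each of which that replicate was the lowest Lck-cre sample.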

How the data were processed

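Total RNA of sorted DP thymocytes was extracted with RNeasy columns, per the labels' protocols. HISAT and Bowtie2 are named in the submitters' processing notes, with versions, roles, quantifier, annotation and genome build not given in the sources used here. Each deposited table holds FPKM, TPM and mean coverage by gene, as the authors made them, per the file headers. Coverage alone is unscaled. In the commonest case 1 FPKM stood for a coverage of 7.53 to 7.89, a proxy for like depth.

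Entries sharing a gene ID were summed. Genes reaching 1 FPKM in 4 or more samples were fitted with limma 3.58.1 (R 4.3.3) on log2(FPKM + 0.5) (terms for sex and genotype, trended empirical Bayes), and checked on simulated data. Python 3.11.15, pandas 2.3.3 and matplotlib 3.10.9 made summaries and figures. The genes and lists were chosen with earlier results of these data known. Named were the 10 genes, fixed pathway genes, the 2 called genes a direction with the smallest adjusted p in each list, genes beside the clusters and the 5 nearest profiles. Other GBP and IRG genes were named from a mean of 1 FPKM in either group, and Iigp1, Casp1, Casp4 and single marker genes after their values were seen. Alternatives were scaling, pseudocount, filter, sex term, males only, no trend, a stricter threshold and each sample left out. Of the lists, 1 signalling gene and 1 marker gene are not reported here.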

Additional observations from a re-analysis of the deposited data

Results flagged for a closer look

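Lck-cre replicate 7 stood apart from the other Lck-cre samples in Gbp8, at 75.9 FPKM against 61.3 to 63.0 FPKM, a gap that takes up most of the range of the group. It was the 1 such case among 22 groups of 4 samples examined (11 genes in each of the 2 groups), and chance gives about 1 in 20. Without that sample Gbp8 was called lower (log2 change -0.30, adjusted p = 0.0283 by limma). It was left out as the highest Lck-cre value, which was bound to lower the estimate, so this call is no separate support for a fall.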

How the results depend on the processing

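Of 180 values (10 genes under 18 other settings), 140 kept their direction and their side of the threshold, 26 lost their call, 9 gained one and 5 changed sign. All 5 were Gbp4, whose log2 change was 0.012 with males only and ranged from -0.055 to 0.012 with single samples left out. The count of all genes called was 1056 with no filter, 615 with males only, 512 at an adjusted p under 0.01 and 636 to 3865 with 1 sample left out. The count of the 10 genes called by limma was 0 with no filter, 0 with males only, 0 at an adjusted p under 0.01 and 0 to 6 with 1 sample left out. At an unadjusted p under 0.05, 6 were higher and 1 lower with no filter, and 3 were higher and 0 lower with males only. The shares of all genes at that unadjusted threshold were not computed, so these counts are not read as a result about the family. Leaving out control replicate 1 or Lck-cre replicate 5 removes 1 female, and the estimate then rests on the males. It is then the same estimate as with males only, so these settings are not separate checks. Quantile normalization and median-of-ratios scaling each called the same 3 genes higher and Gbp8 lower, and TPM values called Gbp3 higher and Gbp8 lower. The causes were not tested. No paired analysis was possible because the replicate numbers of the groups differ.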
